A study of Rattus norvegicus with 4 samples.

Results

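Small RNAs of vascular smooth muscle cells given angiotensin II (Ang II) for 24 h were compared with those of untreated cells, 1 library against 1, which are 2 of the 4 libraries of the series. The members are these 2 libraries, taken by their labels, and everything each of them counted: miRNAs, the ends of their reads, both arms of their hairpins, fragments of tRNA and rRNA, and other sequences read 100 times or more. The cells came from the aorta of Sprague-Dawley rats and were grown in medium with 10% fetal bovine serum (FBS). All groups, the untreated one included, were kept without serum for 48 h. The treated cells then received 100 nM Ang II for 24 h, and the other 2 libraries, from cells given the same dose for 1 h and 3 h, serve here as further points of reference. The untreated library carries no time after the serum was removed, so 24 h of Ang II and 24 h more in culture cannot be told apart. The labels name no animal, passage or culture, so each group is 1 sample with no replicate check, no test of the conditions was possible, and every interval below is a 95% interval that covers counting error only.

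Ang II is a peptide hormone that narrows vessels and drives smooth muscle cells to grow, mainly through the AT1 receptor. A miRNA is cut from the stem of a hairpin. The strand from the 5′ side is called 5p, that from the 3′ side 3p, and usually 1 of them is kept by an Argonaute protein, which finds its targets with the seed, bases 2 to 8. The 3′ end of a miRNA is open to change: exonucleases shorten it, Dicer or Drosha can cut at another place, and terminal transferases add A or U letters that the gene does not encode. Cleavage of tRNA near the anticodon by ribonucleases such as angiogenin gives 5′ and 3′ tRNA fragments, which are known from cells under stress.

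The untreated library held 14395539 reads with a sequence and the 24 h library 14534892, against 13119417 at 1 h and 14370167 at 3 h. Counts were scaled to 1000000 of these reads (RPM). Reads of a miRNA arm made up 72.0% without treatment and 75.1% at 24 h (76.0% and 77.6% in the 1 h and 3 h libraries). Reads of 18 nt or more with no miRNA match made up 20.6% and 17.2%. Of the smooth muscle markers, miR-143-3p alone gave 254580 RPM without treatment and 312160 RPM at 24 h. The liver miRNA listed as a marker of other cells had no arm with 20 reads in any library. The epithelial list had 1 of its 6 names and the blood and immune list 1 of its 4, with summed levels of 3.78 and 0.688 RPM at 24 h. Names were matched as listed, so arms named with a further letter were missed and these counts may be low. The endothelial marker, miR-126, was missed in this way. miR-126a-3p had 1940 reads without treatment, 1632 at 1 h, 2015 at 3 h and 1693 at 24 h. The 7 striated muscle names had 4 arms with 20 reads and a summed level of 129 RPM without treatment and 103 RPM at 24 h. The untreated library stands apart in 1 technical respect: 0.352% of its reads held a base that was not read, against 0.155% at 24 h.

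The sequences that the miRNA results turn on are given with the seed in capitals, since several of them share one. They are rat RefSeq sequences (GRCr8).
miR-132-3p: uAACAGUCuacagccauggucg
miR-212-3p: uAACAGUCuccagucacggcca
miR-129-5p: cUUUUUGCggucugggcuugc
miR-129-2-3p: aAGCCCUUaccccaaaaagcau
miR-182: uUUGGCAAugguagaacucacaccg
miR-183-5p: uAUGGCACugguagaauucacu
miR-503-5p: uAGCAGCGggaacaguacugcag
miR-322-5p: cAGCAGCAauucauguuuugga
miR-497-5p: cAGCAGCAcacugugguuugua
miR-15b-5p: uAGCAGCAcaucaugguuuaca
miR-93-5p: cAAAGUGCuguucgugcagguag
miR-181a-1-3p: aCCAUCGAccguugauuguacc
miR-181c-3p: aCCAUCGAccguugaguggacc
miR-132-3p and miR-212-3p share the seed AACAGUC, and the 3p arms of miR-181a-1 and miR-181c share CCAUCGA.

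After 24 h of Ang II, 9 of 184 miRNAs (4.89%) stood at least 1.5-fold above the untreated cells and 32 (17.4%) at least 1.5-fold below. A miRNA entered this count with 100 reads or more in the higher of both libraries, and log2 ratios were taken of RPM + 1. A miRNA with fewer reads in the lower library thus entered through the one where it is high. Of the 9 higher ones, miR-129-2-3p and miR-384-3p entered in this way, through the 24 h library. The median log2 ratio was -0.25, so the comparison leaned downward as a whole. With TMM factors, which centre it near 0 by a shift of 0.24, 12 were higher and 16 lower, and the 9 higher ones stayed past the limit while 16 of the 32 lower ones did. Median-of-ratios factors gave 12 higher and 10 lower. In bulk RNA, fewer cells of a type and less RNA per cell cannot be told apart. The other libraries place these calls. Of the 32 lower miRNAs, 30 lay below all 3 other libraries at 24 h, as did 102 of all 184. Of the 9 higher ones 5 lay above all 3, as did 24 of the 184. These 5 include miR-129-2-3p and miR-384-3p.

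miR-132-3p, which is transcribed from a promoter bound by CREB, had 512 reads without treatment, 429 at 1 h, 1308 at 3 h and 1268 at 24 h. That is 2.45-fold more at 24 h (2.21 to 2.72), and the level of 24 h was the level of 3 h, with a log2 ratio of -0.06 between them. Its partner of the same gene cluster, miR-212-3p, had 29, 32, 60 and 77 reads in the same order, too few for the count above, and a ratio of 2.63 (1.70 to 4.18). Both were high in the later 2 libraries and low in the earlier 2.

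The other higher miRNAs fell into those that were highest at 24 h and those that had been higher before. miR-129-2-3p had 25 reads without treatment and 106 at 24 h, a ratio of 4.20 (2.70 to 6.78) that rests on few reads. miR-129-5p, the arm on the other side of that hairpin, had 482 reads without treatment, 1189 at 1 h, 1313 at 3 h and 1007 at 24 h. It was 2.07-fold above the untreated cells at 24 h and below both other treated libraries, with log2 ratios of -0.38 to 1 h and -0.39 to 3 h. Both arms are also on the list of neural markers, of which 2 of 4 names had arms with 20 reads and whose summed level was 78.8, 131, 137 and 112 RPM in the order of time; miR-128-3p, the remaining arm, had a log2 ratio of -0.29, and the part of other cells was not tested. miR-21-3p, the lesser arm of the miR-21 hairpin, did the same, with 262, 611, 667 and 489 reads and a ratio of 1.85 to the untreated cells.

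miR-182 had 341 reads without treatment, 374 at 1 h, 434 at 3 h and 631 at 24 h, 1.83-fold more (1.60 to 2.10). miR-183-5p, which is encoded beside it, had 190, 179, 186 and 316 reads, 1.65-fold higher (1.37 to 1.98). miR-664-3p was 1.75-fold higher, and miR-384-3p, with 79 reads without treatment and 159 at 24 h, 1.99-fold. In these 4 the 24 h library was the highest of the 4 libraries. miR-29b-3p, which represses collagen genes, completed the 9 with a ratio of 1.52 (1.44 to 1.60), and its level at 3 h was the same, with a log2 ratio of -0.01.

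The lowest ratio belonged to miR-503-5p, a member of the miR-15/16 group that restrains the cell cycle: 119 reads without treatment, 106 at 1 h, 136 at 3 h and 39 at 24 h. That is 0.325 times the untreated level (0.220 to 0.470), and the 24 h library lay alone below the other 3. miR-503 is encoded with 5 other hairpins on chromosome X (GRCr8, 137720933 to 137726241, minus strand), and all 9 arms of this cluster that could be tested had a log2 ratio below 0, from -1.33 to -0.01; the last, miR-450b-5p, lies above 0 with the TMM shift of 0.24. Past 1.5-fold lower were 5 of the 9, against 17.4% of all miRNAs, whose median was -0.25. These were miR-503-5p, miR-503-3p (208 to 112 reads), miR-322-3p (108 to 52), miR-351-5p (555 to 308) and miR-542-5p (264 to 156). Of these, miR-503-5p and miR-322-3p reached the read minimum without treatment but not at 24 h. They thus entered through the library where they are high. Arms of this kind also count among all miRNAs, and the comparison without them was not made. With the TMM shift miR-542-5p (-0.72) lies within the limit, and miR-503-3p and miR-351-5p (both -0.83) lie close to it. The most read arm, miR-542-3p, had 3546 reads without treatment, 4200 at 1 h, 4803 at 3 h and 2868 at 24 h, a ratio of 0.801 (0.762 to 0.842). Of the 13 clusters of hairpins less than 10 kb apart that had 3 or more tested arms, this one held the most calls, and the next highest count was 2 of 6 lower arms, in the miR-17-92 cluster.

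Other low ratios came from miR-181a-1-3p (1059 reads without treatment, 461 at 24 h, ratio 0.431), miR-99a-3p (161 and 69, 0.424), miR-877 (669 and 337, 0.499) and miR-504 (372 and 185, 0.493). In each of these the 24 h library was the lowest of the 4. miR-421-3p and miR-322-3p shared a log2 ratio of -0.89, miR-455-3p followed at -0.85 and miR-351-5p at -0.83. Of 45 miRNAs with 10000 reads or more without treatment, 0 passed the limit upward and 2 downward: miR-93-5p, with 32954 reads without treatment, 23544 at 1 h, 25576 at 3 h and 18621 at 24 h (ratio 0.560, 0.550 to 0.570), and miR-378a-3p, with 31147, 27225, 30563 and 20605 (0.655, 0.644 to 0.667). With TMM factors miR-93-5p stayed past the limit (-0.60) and miR-378a-3p did not (-0.37), and with median-of-ratios factors neither did (-0.58 and -0.36). miR-93-5p shares the seed AAAGUGC with miR-17-5p, miR-20a-5p and miR-106b-5p, whose log2 ratios ran from -0.56 to -0.50.

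**Figure D1:**
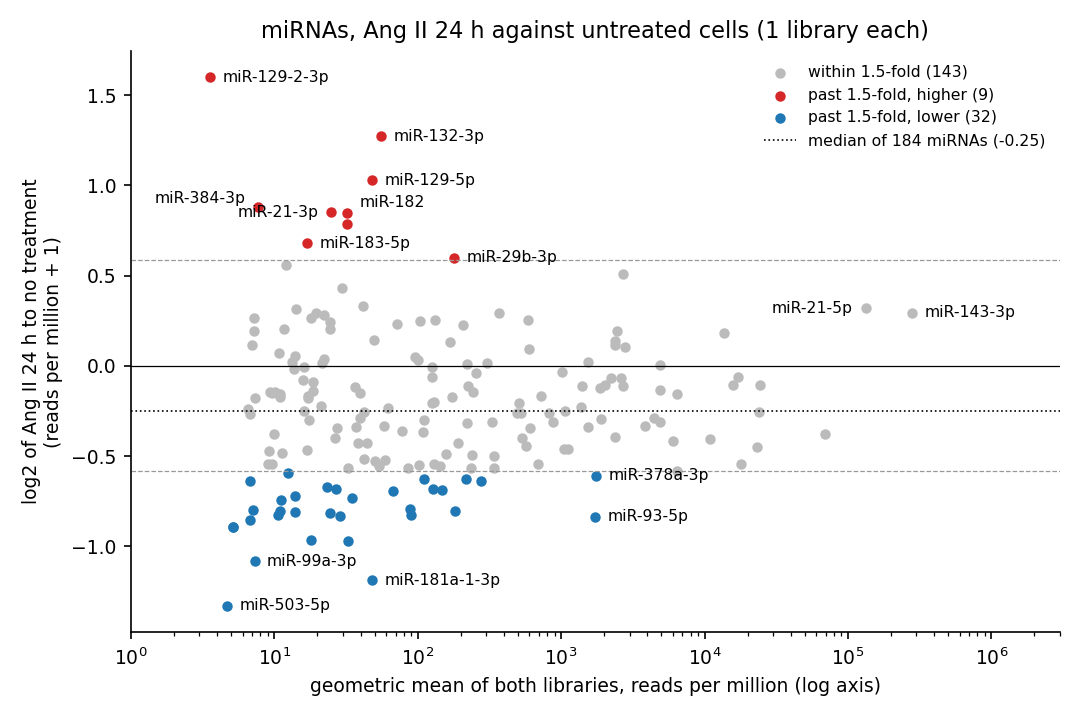
Each point is 1 of 184 miRNAs; the x axis is its level over both libraries (geometric mean, RPM, log axis) and the y axis its log2 ratio of Ang II 24 h to no treatment. Dashed lines mark 1.5-fold; the dotted line marks the median of -0.25. None of the 9 higher miRNAs (red) had 10000 reads without treatment; of the 32 lower ones (blue), 2 did, miR-93-5p and miR-378a-3p, the latter not past the limit with TMM factors.

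Lower calls were found in 2 of the lists of miRNAs. Of the miR-15/16 family, 5 of 9 tested arms were past 1.5-fold lower, against 17.4% of all miRNAs, and 0 higher: both arms of miR-503, miR-322-3p, miR-497-5p (140 reads without treatment, 75 at 24 h) and miR-15b-5p (2319 and 1453). Of these, miR-503-5p, miR-322-3p and miR-497-5p reached the read minimum without treatment but not at 24 h. They thus entered through the library where they are high, and the count without such arms was not compared. miR-195-5p was the one arm above 0, at 0.11. It reached the minimum at 24 h (106 reads) but not without treatment (96 reads). The most read arm, miR-16-5p (7724 reads without treatment), was within the limit at -0.26. miR-503-3p and miR-322-3p are arms from the other side of the hairpin. Of the 5 tested miRNAs with the seed AGCAGCA, 2 were lower, with a median of -0.49. The list had a median log2 ratio of -0.68, and with TMM factors 4 arms were lower and the median was -0.45. Some of these arms lie in the chromosome X cluster, so both counts share members. Of miR-17-92 and its paralogs, which promote proliferation, 3 of 10 were lower (miR-93-5p, miR-92a-3p and miR-18a-5p), against the same 17.4%, with a median of -0.56. With TMM factors 1 was, so the count lies near that of all miRNAs. The let-7 list had 12 tested arms, none past the limit, and a median of -0.27, close to that of all miRNAs (-0.04 with TMM factors). Of the contractile list (miR-143, miR-145, miR-1 and miR-133a) 0 of 5 were past the limit, with a median of 0.11 (0.35 with TMM factors). Of the synthetic list, which holds miRNAs of growing smooth muscle, 1 of 7 was (miR-21-3p, higher), with a median of 0.23. Its miR-31 is left out of both values, since the arms are named miR-31a. miR-31a-5p had 8341 reads without treatment and 7021 at 24 h, and miR-31a-3p 363 and 500. The pair assigned to CREB had 1 tested arm, miR-132-3p, and the matrix list (miR-29) 1 call in 4, miR-29b-3p.

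The 10 most abundant miRNAs were all within 1.5-fold. miR-143-3p had a log2 ratio of 0.29, miR-21-5p of 0.32 and miR-140-3p of 0.18. let-7c-5p (-0.38), let-7b-5p (-0.45), let-7a-5p (-0.26) and miR-10a-5p (-0.54) lay on the lower side. let-7f-5p (-0.11), miR-30a-5p (-0.11) and miR-24-3p (-0.06) lay nearest to 0 and change sign with the TMM shift.

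The 3′ ends of the miRNA reads were compared next, arm by arm, over reads that start at the reference 5′ end. A read was called shortened if it ended before the reference end and extended if it ran past it with letters of the hairpin. It was called tailed if the first letter that did not match the hairpin was among its last 3 letters. A changed base near the 3′ end thus counts as tailed even where the letters after it match. Of 75 arms with 1000 such reads in both libraries, 10 (13.3%) differed by 5 percentage points or more in 1 of these classes. Shortened reads took a larger share at 24 h in 53 of the 75 arms (70.7%), with a median difference of 0.65 points, and tailed reads a smaller share in 63 (84%), with a median of -0.66 points. Over the pooled reads of these arms, which a few abundant miRNAs dominate, the tailed share went the other way, from 19.03% to 20.44%. Against the 1 h library, shortened reads were higher in 64 of 77 arms and tailed ones lower in 54, and against the 3 h library in 61 and 60 of 78. Tails of other or mixed letters had a lower share in 66 of the 75 arms, tails of A alone in 47 and tails of U alone in 49. Extended reads had no such lean, with a larger share in 30 arms (40%) and a smaller one in 42 (56%). Reads with 1 altered base at positions 2 to 17 of the mature sequence were counted in 44 abundant arms. They came to 6.26 per 100 unaltered reads without treatment and 6.08 at 24 h. G to T changes were at 1.87 and 1.38 (1.63 at 1 h, 1.39 at 3 h). The part of altered bases in the tail counts was not tested.

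The arms with the largest moves are shown by their leading reads, with letters past the reference end (extended) or not in the hairpin (tailed) in capitals.
miR-222-3p, reference end: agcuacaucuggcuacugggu
miR-222-3p, extended by 2: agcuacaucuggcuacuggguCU
miR-222-3p, extended by 3: agcuacaucuggcuacuggguCUC
miR-222-3p, extended by 4: agcuacaucuggcuacuggguCUCU
miR-542-3p, extended by 1: ugugacagauugauaacugaaaG
miR-542-3p, shortened by 2: ugugacagauugauaacuga
miR-125a-5p, reference end: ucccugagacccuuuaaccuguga
miR-125a-5p, shortened by 2: ucccugagacccuuuaaccugu
miR-98-5p, shortened by 1: ugagguaguaaguuguauugu
miR-98-5p, tailed with A: ugagguaguaaguuguauuguuA
miR-3473, tailed with U: ucuagggcuggagagauggcuaU

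miR-222-3p, which targets the cell cycle inhibitor p27, had the largest move of all. Its extended share was 34.8% without treatment, 37.8% at 1 h, 37.5% at 3 h and 49.4% at 24 h, which is 14.7 points more than without treatment. The counting intervals of the untreated and 24 h shares were 32.8 to 36.8% and 47.4 to 51.4%. All 3 longer forms shown took part, the one extended by 3 going from 12.0% to 17.0% and the one extended by 4 from 10.4% to 14.5%. Its shortened reads went the other way, from 15.7% to 9.91%, and its tailed reads from 27.8% to 23.1%. Its total stayed within 1.5-fold, with a log2 ratio of 0.13.

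miR-542-3p moved in the opposite direction. Its extended share was 33.0%, 32.9%, 30.1% and 22.3% in the order of time. Its shortened share was 26.4%, 24.4%, 26.9% and 36.8%. Its form shortened by 2 went from 14.6% to 21.6%. In both classes the 24 h library stood alone and the other 3 lay close together.

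Shortened reads of miR-125a-5p took 62.2% without treatment, 63.1% at 1 h, 65.1% at 3 h and 71.1% at 24 h. The form shortened by 2 went from 24.7% to 33.4%. Those of miR-98-5p, a let-7 relative, took 38.9%, 38.8%, 40.1% and 46.4%, while its A-tailed form went from 11.1% to 7.56%. miR-27b-5p stood at 55.2% without treatment and at 61.8%, 60.7% and 60.8% in the treated libraries, so the 3 treated libraries lay together. Upward moves of 5 points in the shortened share came to 4 of 75 arms (5.33%) and downward ones to 2 (2.67%), miR-222-3p and miR-3473.

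Extended reads differed by 5 points upward in 1 arm (1.33%) and downward in 2 (2.67%). The second of these was miR-186-5p, at 43.2%, 44.1%, 41.7% and 36.8%. Just under the limit, miR-21-5p, the second most read miRNA, had 62.0% without treatment, 64.2% at 1 h, 63.3% at 3 h and 67.0% at 24 h. That is a difference of 4.98 points, over 1669644 reads without treatment and 2114939 at 24 h. let-7e-5p went from 15.4% to 11.2% and miR-146a-5p from 30.9% to 26.4%, while miR-23a-3p went from 35.3% to 39.4%.

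Tailed reads differed by 5 points upward in 1 arm (1.33%), miR-3473, from 48.1% to 57.9%, and downward in 3 (4%). These were miR-185-5p, at 29.9%, 30.8%, 25.7% and 22.9%, miR-34a-5p, at 26.9%, 26.8%, 27.3% and 20.9%, and miR-31a-5p, at 21.003%, 15.5%, 15.1% and 15.9%. The last was lower in all 3 treated libraries, miR-185-5p in the 3 h and 24 h libraries, and miR-34a-5p at 24 h alone. miR-143-3p, the most read miRNA, moved less: its form shortened by 2 made up 58.4% of its reads without treatment and 57.7% at 24 h, and a form with a U in the last place, shown here, 24.9% and 26.3%.
miR-143-3p, tailed: ugagaugaagcacuguagcucU

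**Figure D2:**
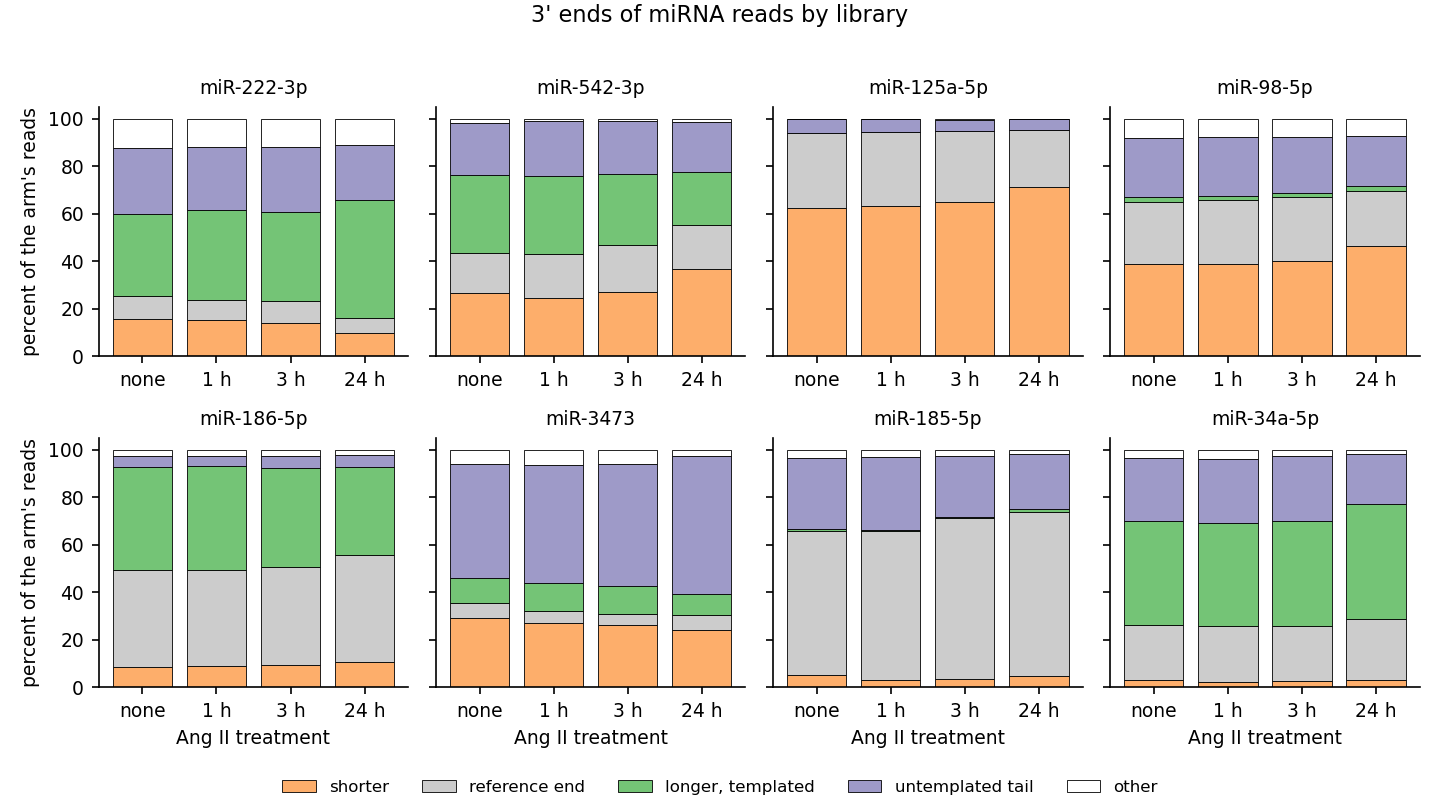
Stacked bars give the percent of an arm's reads (y axis) in each 3′ class, for 8 miRNAs in the 4 libraries (x axis). Reads are shorter than the reference, end at it, are longer with hairpin letters, are tailed as defined above (drawn as untemplated tail) or are other. The green share of miR-222-3p goes from 34.8% to 49.4% and that of miR-542-3p from 33.0% to 22.3%, in each case mainly in the 24 h bar.

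Arms of one hairpin were compared by the odds of the lesser to the more read arm, which no scaling can move. Of 49 hairpins, 8 (16.3%) had odds at least 1.5-fold lower at 24 h and 4 (8.16%) at least 1.5-fold higher. The lowest odds ratio was that of miR-181a-1-3p against miR-181a-5p, with odds at 0.466 (0.417 to 0.520). The lesser arm held 2.54% of the hairpin's reads without treatment, 2.14% at 1 h, 2.34% at 3 h and 1.20% at 24 h. miR-181a-5p is also cut from a second gene, so that pair's reads mix 2 sources. The names miR-125b-2-3p and miR-129-2-3p, given below, also carry a gene number, so their more read arms may come from another gene too. miR-664-3p, also below, is set against miR-664-2-5p, whose name carries such a number, so reads of miR-664-3p may come from another gene. miR-27a-5p against miR-27a-3p gave 0.520 (0.480 to 0.564): the lesser arm held 4.90%, 6.03%, 4.85% and 2.61%, and the 3p arm had a log2 ratio of 0.14.

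miR-181c-3p, with 270, 181, 158 and 149 reads in the order of time, was at odds of 0.541, with a share of 46.7%, 46.3%, 35.99% and 32.2%. miR-125b-2-3p was at 0.624, miR-365-5p at 0.641 and miR-34c-3p at 0.657, while miR-503-5p (0.609) and miR-384-5p (0.620) rest on 39 and 116 reads at 24 h. Without treatment these 2 had 119 and 93 reads, so miR-503-5p reached 100 reads only there and miR-384-5p only at 24 h. Upward, miR-664-3p had odds of 2.06 (1.76 to 2.42) with a share of 26.5%, 27.2%, 34.8% and 42.7%. miR-31a-3p stood at 1.64 (1.42 to 1.88) with 4.17%, 5.0%, 5.0% and 6.65%. miR-129-2-3p (2.03) and miR-345-5p (1.71) had 106 and 114 reads at 24 h. Except for miR-34c-3p, whose share was 0.151% at 1 h and 0.160% at 24 h, each of these 12 shares lay outside the range of the other 3 libraries at 24 h.

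Sequences with no miRNA match were read next. No tRNA or rRNA reference was used here, so the RNAs were recognised from their letters by general knowledge, after the values had been seen. The leading tags of those with the largest differences, and of 2 near the untreated level (tRNA-Pro and tRNA-Val), are shown so that each name can be checked.
tRNA-Gly, 5′ part: gcatgggtggttcagtggtagaattctcgc
tRNA-Glu, 5′ part: tccctggtctagtggttaggattcggcgc
tRNA-Pro, 5′ part: ggctttggtctaggggtatgattctcgc
tRNA-Asn, 5′ part: gtctctggcgcaatcggtagcgctttcgg
tRNA-Met, 3′ part: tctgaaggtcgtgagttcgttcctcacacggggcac
tRNA-Lys, 3′ part: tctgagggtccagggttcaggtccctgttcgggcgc
tRNA-Asp, 3′ part: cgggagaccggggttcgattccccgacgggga
tRNA-Val, 5′ part: gtttccgtagtgtagtggtt
28S rRNA, 5′ start: cgcgacctcagatcagacg
5.8S rRNA, 5′ start: cgactcttagcggtggatcactc

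Fragments of tRNA made up 0.613% of the reads without treatment, 0.500% at 1 h, 0.384% at 3 h and 1.22% at 24 h. Of 17 classes of tRNA fragment, 6 (35.3%) were at least 1.5-fold higher at 24 h and 0 (0%) lower. The 5′ part of tRNA-Gly had 25649 reads without treatment, 19924 at 1 h, 17656 at 3 h and 84627 at 24 h, a ratio of 3.27 (3.22 to 3.31). That of tRNA-Glu had 20794, 15514, 13019 and 47648, a ratio of 2.27 (2.23 to 2.31). In both, the 24 h library stood above the other 3, and the 3 h library was the lowest.

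Classes with fewer reads had larger ratios. The 3′ part of tRNA-Met had 305 reads without treatment, 266 at 1 h, 202 at 3 h and 2473 at 24 h, 8.03-fold (7.13 to 9.07). The 3′ part of tRNA-Lys had 275, 183, 112 and 1651, 5.95-fold (5.23 to 6.78). The 5′ part of tRNA-Asn followed with 2.48 and the 3′ part of tRNA-Asp with 1.58. Each class sums only tags that reached the read minimum given at the outset, without treatment or at 24 h. The tRNA-Met class held 9 tags, and the 3′ part of tRNA-Lys and the 5′ part of tRNA-Asn 4 each. Their untreated reads were too few for all these tags to reach the minimum there, so some entered through the 24 h library alone. Some tags of the 5′ parts of tRNA-Gly and tRNA-Glu did so too. Examples are a tRNA-Gly tag with 27 reads without treatment and 190 at 24 h, and a tRNA-Glu tag with 73 and 195. In all these classes this can raise the ratios and lower the 1 h and 3 h counts, and its size was not tested. Other classes lay near the untreated level: the 5′ part of tRNA-Pro, about as often read as that of tRNA-Glu, had 20045, 13629, 10206 and 18211 reads and a ratio of 0.900 (0.882 to 0.918). Those of tRNA-Ala (0.968), tRNA-Val (0.941), tRNA-His (0.995) and tRNA-Lys (0.859) also lay close to the untreated level. The 5′ parts of tRNA-Gln (0.812), tRNA-Ser (0.699) and tRNA-Leu (1.09) and the 3′ parts of tRNA-Glu (0.918) and tRNA-Gly (1.25) were within 1.5-fold. The 5′ part of tRNA-Asp lay just under the limit, at 1.49, and above the other 3 libraries. tRNA-Val passed the limit (log2 ratio 1.08) when tags under 24 nt were left out, and 8 of 16 classes were then higher and 1, tRNA-Ser, lower.

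Within tRNA-Gly the ratio differed with the place where the tag ended. The 30-nt tag shown had 2596, 1907, 1600 and 13844 reads, 5.28-fold (5.06 to 5.51), and the tag 1 letter longer was 3.37-fold higher. The tags of 32 nt and 34 nt were 1.86-fold and 1.67-fold higher, and the 29-nt one 2.45-fold. Other tags that end at the same letter and differ from it near the start, by letters that some of them lack, are these.
29 nt: gcattgtggttcagtggtagaattctcgc
28 nt: gcatgtggttcagtggtagaattctcgc
30 nt: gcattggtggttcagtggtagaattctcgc
The first was 6.96-fold and the second 8.36-fold higher, with 9425 and 7756 reads at 24 h. The last had 71 reads without treatment and 564 at 24 h, 7.87-fold, and so reached the read minimum only through the 24 h library. For tRNA-Glu the 29-nt tag was 2.57-fold higher and its 31-nt and 32-nt relatives with the same end 2.40-fold and 2.85-fold. Since the sources used here do not say how the tags were filtered, a class may be counted in part.

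**Figure D3:**
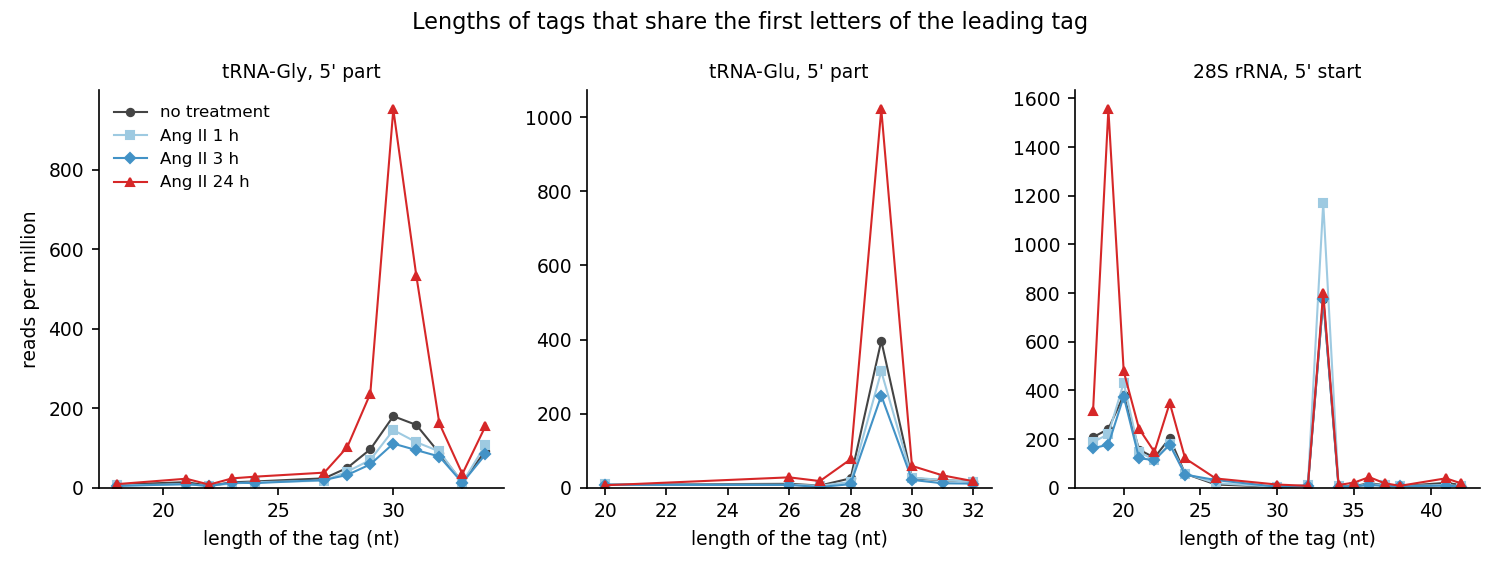
RPM (y axis) by length of the tag in nt (x axis) for tags that carry the leading start of the 5′ part of tRNA-Gly, the 5′ part of tRNA-Glu and the 5′ start of 28S rRNA, with 1 line per library. The 24 h line (red) lies above the others at 30 nt, 29 nt and 19 nt, while at 33 nt of 28S rRNA it lies with the untreated line.

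Ribosomal fragments moved in both directions. Of 6 classes of rRNA fragment, 1 (16.7%) was at least 1.5-fold higher and 1 (16.7%) lower. The 5′ start of 5.8S rRNA was the most read RNA without a miRNA match, with 346596 reads without treatment, 269414 at 1 h, 153052 at 3 h and 158799 at 24 h, a ratio of 0.454 (0.451 to 0.456). The 3 h and 24 h libraries lay together, with a log2 ratio of 0.04, so the lower level was already there at 3 h. By length, tags of 18 to 21 nt were at 0.372, those of 22 to 27 nt at 0.498, those of 28 to 31 nt at 0.639, those of 32 to 34 nt at 0.393 and those of 35 nt or more at 0.861 of the untreated level. The rest of 5.8S rRNA was at 0.937 and 5S rRNA at 0.936.

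Inside the 5.8S start, the 2 most read tags of 33 nt differ only by G29C, with positions counted from 1 at the 5′ end and the letter in capitals.
G form: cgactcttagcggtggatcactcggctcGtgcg
C form: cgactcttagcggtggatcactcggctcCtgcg
The G form had 27838, 25279, 10958 and 16920 reads in the order of time and the C form 28196, 23123, 5115 and 8329. The C form thus took 50.3% of both without treatment, 47.8% at 1 h, 31.8% at 3 h and 33.0% at 24 h. Its ratio was 0.293 against 0.602 for the G form. Many other 33-nt tags with this start differed from both in their last letters, so these are not the only 2 forms. Examples went from 4821 reads without treatment to 1315 at 24 h (0.270), from 3429 to 383 (0.111) and from 2312 to 1412 (0.605). Tags of this length with an unread base had 233 and 243 reads without treatment and 0 at 24 h. In the tags that start 1 nt further in, C made up 49.4%, 40.5%, 34.2% and 29.9% of the reads that cover the position. G to C changes at positions 2 to 17 of abundant miRNAs came to 0.340 per 100 unaltered reads without treatment and 0.428 at 24 h. These positions do not reach position 29, so this count cannot tell how often that base was misread.

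The 5′ start of 28S rRNA had 33878 reads without treatment, 35803 at 1 h, 30985 at 3 h and 63799 at 24 h, a ratio of 1.87. The lengths differed: the 19-nt tag shown had 3485, 2889, 2557 and 22604 reads, 6.42-fold (6.20 to 6.66), whereas the 20-nt tag was 1.26-fold and the 33-nt tag 1.08-fold higher. With tags under 24 nt left out the class was no longer past the limit, at a log2 ratio of 0.28. The other 28S fragments together were at 1.09 and 18S rRNA at 1.00, and their parts differed, as given below for single groups.

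**Figure D4:**
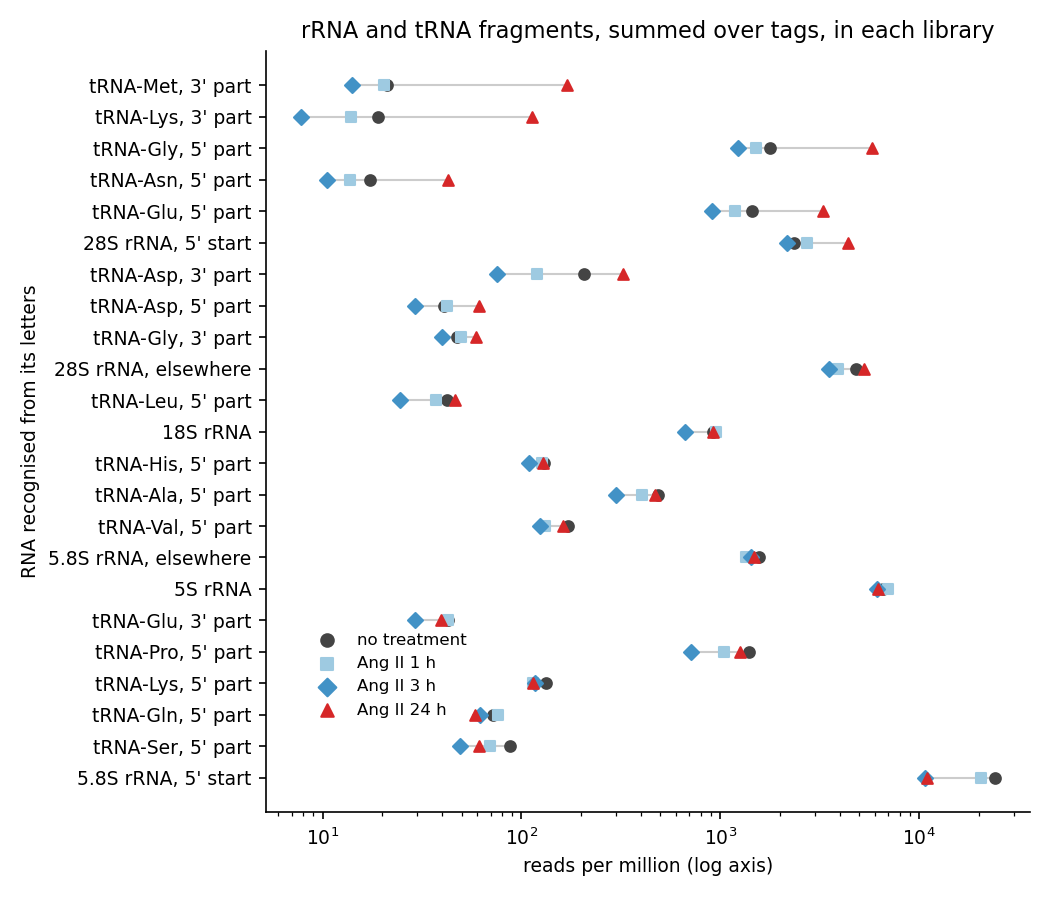
RPM (x axis, log) of each class of rRNA or tRNA fragment (y axis) in the 4 libraries, 1 marker shape each, ordered by the ratio of 24 h to no treatment. The red 24 h markers stand to the right of the other 3 for the upper 7 classes, which are past 1.5-fold. They do so too for the next classes, within 1.5-fold, down to the 5′ part of tRNA-Leu. For the 5.8S start both the 3 h and 24 h markers lie to the left.

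Tags read 100 times or more in either library and matched to no miRNA numbered 2421, of which 479 (19.8%) were at least 1.5-fold higher at 24 h and 739 (30.5%) lower. Their median log2 ratio was -0.25, as for miRNAs. With TMM factors 586 were higher and 525 lower. Near copies of far more read tags, and tags with an unread base, made up 592 of them, with 138 higher (23.3%) and 210 lower (35.5%); among the other 1829, 341 (18.6%) were higher and 529 (28.9%) lower. Merged with all tags that share their first 18 letters, these 1829 formed 676 families, 121 higher (17.9%) and 110 lower (16.3%). Linked by shared stretches of 16 letters they formed 274 groups, 46 higher (16.8%) and 37 lower (13.5%), and a letter match to the RNAs named above covered 65 of these.

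Some of the higher groups were recognised as parts of the long ribosomal RNAs. Of 21 groups recognised as 28S rRNA away from its start, 13 were at least 1.5-fold higher and 2 lower. Of the 21, 6 reached 100 reads in the 24 h library but not without treatment, so they entered through the library where they are high. Of the other 15, 7 were higher and 2 lower, beside 20 higher and 37 lower among the 243 groups of all kinds with 100 reads without treatment. Of 11 groups of 18S rRNA, 4 were higher and 1 lower, and all 4 reached 100 reads at 24 h but not without treatment. The leading tags of 7 higher groups, chosen after their values were seen, were these.
28S, tag 1: cggaccaggggaatccgac
28S, tag 2: ccggtgagctctcgctggc
28S, tag 3: gcggtgagccttgaagcctagggcgc
28S, tag 4: tgagaggtgtagaataagtgggaggccc
18S, tag 1: gggcaccaccaggagtggagcctg
18S, tag 2: ccgggaaaccaaagtctttgggttccgggg
18S, tag 3: atggaataggaccgcggt
The group of 28S tag 1 had 4 reads without treatment, 15 at 1 h, 28 at 3 h and 577 at 24 h. The group of tag 2 had 237, 148, 165 and 3556 reads, 14.9-fold (13.0 to 17.0), that of tag 3 had 111, 141, 145 and 1258, and that of tag 4 had 2456, 1212, 2801 and 12448, 5.02-fold. The group of 18S tag 1 had 3, 9, 2 and 414 reads, a ratio of 137 with a counting interval of 46.4 to 665. With all tags that share its first 18 letters it had 7, 9, 3 and 445 reads and a ratio of 62.96 (30.3 to 158), so the size of this ratio rests on a few untreated reads. The groups of the other 18S tags had 7, 7, 10 and 327 reads and 37, 38, 46 and 586. In all 7 the 24 h library lay above the other 3. The most read groups of 28S rRNA had lower ratios: the one led by the tag gtggaacctggcgctaaac had 39374, 33086, 27529 and 28898 reads, a ratio of 0.727. Reads of 16 and 17 nt, which stayed outside these groups, made up 1.03% without treatment and 1.28% at 24 h, and their part in these ratios was not tested.

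Groups that carry the letters of box C, TGATGA, within their first 16 letters numbered 50 of 274. Box C and box D (CTGA near the 3′ end) mark the small nucleolar RNAs that guide the methylation of ribosomal RNA, and a letter match does not show that a tag comes from one. Of these 50, 2 were past 1.5-fold higher and 8 lower, against 16.8% and 13.5% of all groups, so the lower count lies near that of all groups. Their median log2 ratio was -0.03. The 2 most read of them, shown with these letters in capitals, were both lower.
first: agcctgTGATGAattcaatttCTGAc
second: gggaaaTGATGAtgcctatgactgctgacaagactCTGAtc
The first group had 239225 reads without treatment, 151947 at 1 h, 173759 at 3 h and 117883 at 24 h, a ratio of 0.488. The second had 180135, 83900, 122889 and 92538, a ratio of 0.509. Both were lower in each treated library than without treatment. The other 48 groups together were so too, with 4936, 3668, 4116 and 4747 RPM in the order of time, and their ratio at 24 h was 0.962 (0.952 to 0.972). Among the 10 families of tags with the lowest ratios, 4 were forms of the 5.8S start with letters ahead of it, such as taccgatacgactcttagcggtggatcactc with its shorter and longer forms, at 0.301 (6771 reads without treatment, 4074 at 1 h, 2540 at 3 h and 2060 at 24 h). A form of the first box C group with 1 more letter at its start, aagcctgTGATGAattcaatttCTGAc, was at 0.328, with 13996, 8603, 10026 and 4632 reads. In both the 24 h library was the lowest of the 4.

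**Figure D5:**
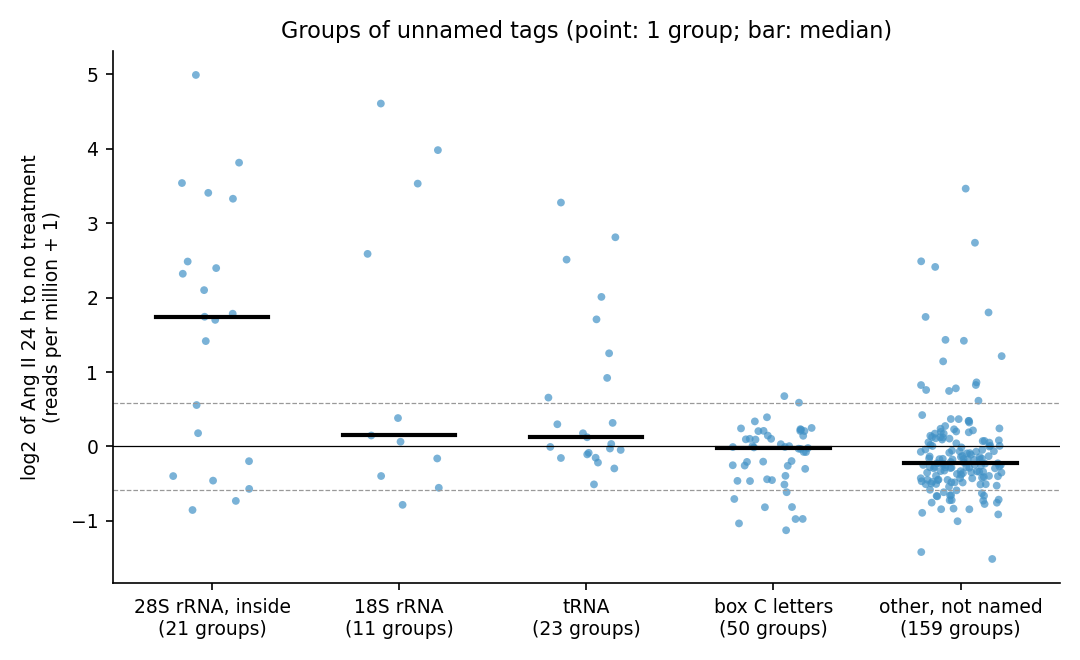
Each point is 1 group of linked tags; the y axis is its log2 ratio of Ang II 24 h to no treatment, the x axis sorts the groups by the RNA or letters they were recognised by, and the bar is the median. The 21 groups inside 28S rRNA reach 4.99, and 6 of them passed the read minimum only at 24 h; those with box C letters centre on -0.03.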

How the data were processed

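Small RNA was sequenced in 4 libraries, 1 per group. The deposited tables hold, per sequence tag, a raw read count, made from adapter-ligated, PCR-amplified RNA, per the labels' protocols. Novoalign and rn4 stand in the submitters' processing notes without a role. The row QC (5.13 to 7.07% of reads) was left out. The members and lists were chosen with earlier results of these data known. Tags of 18 nt or more were assigned to 692 miRNA arms (RefSeq, GRCr8) by their first 18 letters or exact position in 1 of 419 hairpins, and ties were shared. Reads were scaled to 1000000 per library, with 1 RPM added before log2. A difference was called past 1.5-fold with 100 reads in the higher library. Arms with 1000 reads in both libraries entered the 3′ classes; 66 arms could not be used there. Exact 95% intervals (binomial; Clopper-Pearson for shares) and, for odds ratios of arms, 95% Wald intervals on the log scale describe counting error alone; PCR copies of a molecule are not independent of each other.

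The rule for names took the 10 largest differences each way and the 10 most abundant miRNAs, up to 10 hairpins and 10 miRNAs per 3′ class by size, all tRNA and rRNA classes, and the 10 most different families of tags each way. Of the 3′ classes and families only some of these are printed. Names beyond the rule, and all groups of linked tags, were chosen after values were seen. No tRNA or rRNA reference was used here: the plan was to leave such tags unnamed, and 65 groups were then given 24 labels (adapter included) from general knowledge. Alternatives changed scaling, read minimums, pseudocount, limits, tags counted and reference library. Scripts were tested on simulated data. TMM factors came from edgeR 4.0.16 under R 4.3.3, and all else from Python 3.11.15 with pandas 2.3.3, numpy 2.4.6, scipy 1.17.1 and matplotlib 3.10.9.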

Additional observations from a re-analysis of the deposited data

How the results depend on the processing

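Of 520 values of named items set against an alternative, 41 changed sign. For 34 of these the main value was within 1.5-fold (17 with another reference library, 10 with another scaling, 7 with other tags or lengths counted). The other 7, past the limit in the main value, changed sign with another reference library. Against 1 h these were miR-129-5p (-0.38) and miR-21-3p (-0.46), and against 3 h miR-132-3p (-0.061), miR-129-5p (-0.39), miR-21-3p (-0.45), miR-29b-3p (-0.013) and the 5.8S start (0.037). Of 75 counts under an alternative, 44 were within 1.5 times the main count and 31 were not. The 32 lower miRNAs became 16 with TMM factors, 10 with median-of-ratios factors, 19 at 300 reads, 15 with a pseudocount of 10 RPM (the 9 higher became 5), 3 at 2-fold (3 higher), 17 with mature sequences alone, 15 against 1 h and 21 against 3 h. At 2-fold with TMM factors, an alternative chosen after seeing the data, 1 was left. The 10 arms with a shifted 3′ class became 21 at 300 reads, 3 at 3000 reads, 24 at 3 points and 2 at 10 points, and the 12 hairpins with shifted arms 23 at 20 reads and 6 at 300. The 6 tRNA classes became 10 against 3 h, and the 2 rRNA classes 1 with a minimum of 24 nt and 1 against 3 h. The 479 higher and 739 lower tags became 162 and 253 at 300 reads and 30 and 86 at 1000 reads. The lower ones became 372 with a pseudocount of 10 RPM, 399 at 2-fold, 437 against 1 h and 247 against 3 h. They became 489 when all tags without a miRNA match, near copies and rarely read ones included, were merged by their first 18 nt. That is a wider set than the 676 families above, of which 110 were lower. Groups of linked tags, also chosen after seeing the data, as were TMM factors for tags and leaving out near copies, gave 46 and 37. Fewer items enter under higher read minimums; the cause of the other moves was not tested. No paired analysis was possible because each group has 1 library. With 1 library a side, the spread between cultures is unknown, and small groups such as miR-129-2-3p rest on few reads. The fragment classes were not set against TMM factors, whose shift of 0.24 is larger than the distance from 0 of several of them.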

Other observations

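Reads of miR-31a-5p included a tag that runs 14 letters past the reference end, all of them letters of the hairpin.
miR-31a-5p, long form: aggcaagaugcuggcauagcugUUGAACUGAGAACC
It made up 7.54% of the arm's reads without treatment, 19.9% at 1 h, 15.8% at 3 h and 4.46% at 24 h. The share was highest in the 2 early treated libraries and lowest at 24 h. The same arm had its lowest tailed share in the treated libraries, given above.

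The 5′ ends of miRNA reads moved less than the 3′ ends. Of 78 arms, 0 differed by 5 points or more in the share of reads that start away from the reference end, and the differences ran from -4.83 to 4.16 points.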
